A study of Mus musculus and Rattus norvegicus with 26 samples.

Results

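Intronic reads of 10 postsynaptic density scaffold genes were examined in 6 lists of intronic contigs from single cells and dissected neuronal processes. The members were chosen by gene symbol: the membrane-associated guanylate kinases Dlg1, Dlg2, Dlg3 and Dlg4, their binding partners Dlgap1, Dlgap2 and Dlgap3, and the Shank proteins Shank1, Shank2 and Shank3. They are 10 of the 13695 gene symbols found in any list. All 10 occurred in at least 1 of the 4 mouse lists, which together named 12467 genes, and 7 occurred in at least 1 of the 2 rat lists, which together named 5712 genes.

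The study asked how widely intronic sequence is kept in transcripts outside the nucleus. Dendrites, which hold cytoplasmic RNA, were cut by hand from cultured hippocampal neurons and set against neuronal somas, which hold nuclear RNA as well, and against single cells of other tissues. A contig here is a stretch of an intron covered by clustered reads, and all libraries of a condition were pooled in 1 list by the authors, so there are no replicates, no spread between libraries and no test of any difference. Read counts belong to introns, and a gene's value is the sum over its listed introns, also given as RPM, its reads scaled to a total of 1000000 reads in the list. The mouse neuronal lists come from hippocampus of C57BL/6 embryos at embryonic day 18, with 3 dendrite and 3 soma libraries. The rat neuronal lists come from hippocampus of Sprague-Dawley embryos at embryonic day 18, with 2 dendrite and 3 soma libraries. In both species the neurons were grown in culture after the hippocampi were taken, so embryonic day 18 is not their age at harvest. For the list called BAT, the labels name 6 libraries of interscapular brown adipose tissue of CD-1 mice at embryonic day 17.5. For the cardiomyocyte list they name 9 libraries of transgenic C57BL/6 mice at embryonic day 14.5, hemizygous for the Fucci cell cycle probe mAG-hGem(1/110) under the CMV promoter, whose cells were sorted by flow cytometry. The study's text counts fewer cells of both kinds than the labels, so whether every labelled library entered these 2 lists is not known here. All libraries were made from RNA amplified by the aRNA method, in which an oligo(dT) primer with a T7 promoter starts repeated linear transcription. A dendrite library pools many dissected processes, and the dissection does not separate axons from dendrites.

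The postsynaptic density is the protein layer under the membrane of an excitatory synapse. Dlg proteins bind glutamate receptors, channels and adhesion molecules through PDZ domains, Dlgap proteins (also called SAPAP or GKAP) bind the guanylate kinase domain of Dlg proteins, and Shank proteins bind Dlgap proteins and lead on to Homer proteins and the actin cytoskeleton. Several of these genes span very long introns. Dlg1 is also expressed outside neurons, where it works in epithelial and other cell junctions.

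The sequences below, read from NCBIM37 (the mm9 build of the mouse lists) on the plus strand, carry the intronic stretches that the values turn on. Whether any printed stretch is repeated elsewhere in the genome was not analysed here. Dlg2 intron 9 held the dendrite contig with 1566 reads. Its first 300 bases, chr7:99128132-99128431, are shown with the 225 bases that were also covered in somas in capitals. The soma contig began 1 nt after the dendrite contig. Dlg4 intron 8 was listed in dendrites, somas and BAT cells. The dendrite contig, chr11:69847688-69847929, is shown with the 163 bases shared by all 3 contigs in capitals.
Dlg2 intron 9: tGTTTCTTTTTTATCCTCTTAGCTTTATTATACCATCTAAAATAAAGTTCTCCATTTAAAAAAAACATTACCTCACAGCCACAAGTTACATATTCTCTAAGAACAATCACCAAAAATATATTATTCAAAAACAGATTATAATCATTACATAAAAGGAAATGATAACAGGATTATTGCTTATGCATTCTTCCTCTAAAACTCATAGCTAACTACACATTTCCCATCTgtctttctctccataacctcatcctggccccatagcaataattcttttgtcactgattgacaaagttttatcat
Dlg4 intron 8: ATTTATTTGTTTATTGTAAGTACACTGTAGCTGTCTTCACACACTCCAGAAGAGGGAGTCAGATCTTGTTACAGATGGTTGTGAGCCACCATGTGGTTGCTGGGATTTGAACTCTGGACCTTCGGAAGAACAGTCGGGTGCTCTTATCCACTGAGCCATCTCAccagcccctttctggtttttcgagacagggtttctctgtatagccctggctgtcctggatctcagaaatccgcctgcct

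Exon 22 of Dlg2, 92 coding bases, separated a pair of soma contigs that reached it from both sides. The contig in intron 21 ended at 99591112, 1 nt before the last base of the intron, and the contig in intron 22 began at 99591206, the first base of the intron. Their reads were unlike, with 15 in intron 21 and 4151 in intron 22. The exon is in capitals within chr7:99591014-99591305.
Dlg2 exon 22: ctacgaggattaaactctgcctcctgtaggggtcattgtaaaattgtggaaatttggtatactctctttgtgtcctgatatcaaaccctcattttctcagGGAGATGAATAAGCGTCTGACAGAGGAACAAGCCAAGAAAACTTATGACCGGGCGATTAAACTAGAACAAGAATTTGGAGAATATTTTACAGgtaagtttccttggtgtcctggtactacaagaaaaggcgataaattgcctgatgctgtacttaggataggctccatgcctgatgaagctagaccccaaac

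Runs of A were looked for because the first primer of the aRNA method is an oligo(dT). The 3 stretches below come from the introns with the most Dlg1 reads in BAT cells and the most Dlg2 reads in somas, with runs of at least 10 A in capitals. They show places with such a run, so they are no measure of how often runs occur. The leading Dlg2 intron in cardiomyocytes, 20, also held such a run in its contig. The leading Dlg2 introns in dendrites, 9, and in BAT, 6, had none in a contig or within 300 nt downstream. In Dlg2 intron 22, chr7:99592392-99592543, a run of 12 A ended 15 nt after the soma contig, and a further run of 18 A, not shown, lay inside it. In Dlg1 intron 3, chr16:31682689-31682853, a run of 25 A lay inside the BAT contig. In Dlg1 intron 4, chr16:31685087-31685236, a run of 10 A ended 190 nt after 1 of the 8 BAT contigs. The other BAT contigs of this intron had no such run inside or within 300 nt downstream. The reads are given per intron, so they cannot be assigned to single contigs there.
Dlg2 intron 22: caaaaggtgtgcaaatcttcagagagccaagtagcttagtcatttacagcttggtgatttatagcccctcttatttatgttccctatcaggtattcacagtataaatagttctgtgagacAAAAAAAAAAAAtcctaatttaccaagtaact
Dlg1 intron 3: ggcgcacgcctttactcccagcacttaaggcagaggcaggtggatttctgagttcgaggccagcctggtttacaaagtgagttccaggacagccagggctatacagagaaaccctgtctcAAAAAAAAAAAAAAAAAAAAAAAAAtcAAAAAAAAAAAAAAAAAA
Dlg1 intron 4: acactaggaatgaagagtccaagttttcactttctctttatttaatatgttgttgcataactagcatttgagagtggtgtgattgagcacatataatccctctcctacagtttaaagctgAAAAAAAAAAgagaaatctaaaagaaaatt

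The lists held between 1007530 reads (rat dendrites) and 17858440 reads (BAT) in introns of 3393 to 10220 genes. Depth per library was not analysed here. Intervals are exact 95% intervals and cover counting error only, since reads copied by amplification are not independent molecules. Of 7 neuronal markers, 5 were listed in mouse somas with 17346 reads and 4 in mouse dendrites with 556 reads, while Map2 and Syn1 were in no list. In the rat, neuronal markers had 11923 reads in somas (4 listed) and 384 reads in dendrites (3 listed). Astrocyte markers reached 2983 reads in mouse dendrites (4 of 5 listed, Aldh1l1 2826), against 264 in mouse somas, and 69 in rat dendrites against 252 in rat somas. The microglial marker Itgam had 838 reads in mouse dendrites and 701 in rat dendrites. BAT cells had 61264 reads of brown adipocyte markers, 49637 of cardiomyocyte markers, with 26804 in Nkx2-5 and 12481 in Actn2, and 10907 of neuronal markers, with 8127 in Syt1 and 2754 in Snap25. Cardiomyocytes had 321161 reads of cardiomyocyte markers (6 of 7 listed, Nkx2-5 not listed), 3505 of brown adipocyte markers and no listed neuronal, astrocyte, oligodendrocyte or microglial marker. The part of these marker genes in the values below was not tested.

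Scaffold genes were listed in every condition, neuronal or not. In mouse dendrites 8 of 10 members were listed, where 69.0% of all mouse genes of the lists were. Mouse somas also listed 8, against 47.3% of all genes, BAT cells 8, against 82.0%, and cardiomyocytes 4, against 49.8%. Rat dendrites listed 5 of the 7 members found in the rat lists, where 78.5% of all rat genes were listed, and rat somas 6 of 7, against 59.4%. With so few genes these shares are coarse, and the counts in dendrites, BAT and cardiomyocytes were near what the background share would give. With at least 32 reads in 1 intron, 5 members were left in mouse dendrites (43.1% of all genes), 7 in mouse somas (25.6%), 4 in BAT (55.7%), 2 in cardiomyocytes (32.3%), 4 in rat dendrites (38.1%) and 5 in rat somas (32.7%). With a minimum 8 times as high there were 2 in mouse dendrites (16.2% of all genes), 4 in mouse somas (8.84%), 4 in BAT (32.9%), 1 in cardiomyocytes (21.4%), 2 in rat dendrites (12.4%) and 3 in rat somas (18.1%). Dlg2 was the only member in all 6 lists. Dlg3, Dlg4 and Shank2 were in no rat list.

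The members together had 1996 RPM in mouse dendrites (interval 1947 to 2047) and 4142 RPM in mouse somas (4050 to 4236). BAT cells reached 4173 RPM (4143 to 4203) and cardiomyocytes 572 RPM (559 to 586). In the rat the sums were 1279 RPM in dendrites (1210 to 1351) and 4091 RPM in somas (4005 to 4179). Somas thus stood above dendrites in both species by more than the counting error, while the mouse soma and BAT intervals overlapped. In a pooled list, more cells with a transcript and more reads per cell cannot be told apart. Single introns set these sums. Without the member intron with the most reads, an alternative chosen after the data were seen, they became 1489 RPM in mouse dendrites, 1905 in mouse somas, 2441 in BAT, 27.7 in cardiomyocytes, 765 in rat dendrites and 766 in rat somas, and the distance between rat somas and dendrites was gone. With only introns that hold a contig of at most 400 nt they were 2469, 2805, 6507, 29.8, 348 and 2254 RPM in the same order, and BAT then stood above mouse somas. The median member in a list had 89 reads in mouse dendrites (78 for all genes there), 297 in mouse somas (46), 266 in BAT (169), 109 in cardiomyocytes (158), 229 in rat dendrites (32) and 283.5 in rat somas (54).

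**Figure D1:**
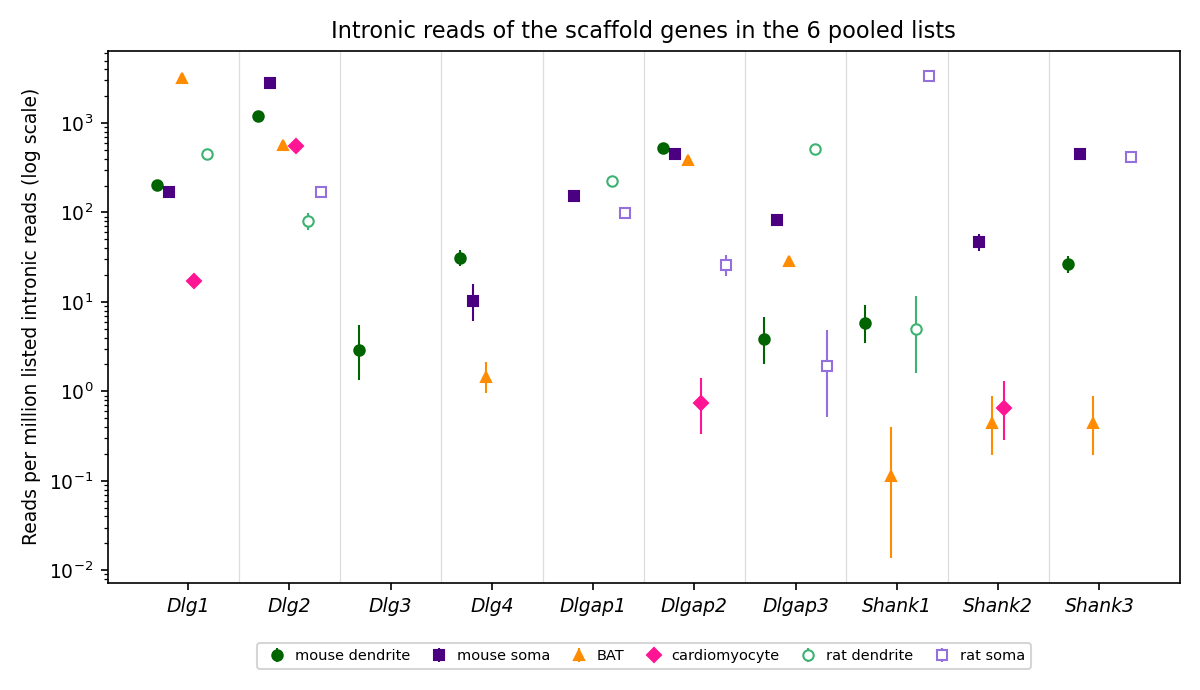
RPM (log axis) for each scaffold gene in each list. Points are pooled lists, bars are exact 95% counting intervals, open symbols are rat, and a gene without a point is not listed there. Dlg2 is the only gene with 6 points, and the highest points are Dlg1 in BAT at 3184 RPM and Shank1 in rat somas at 3371 RPM.

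Dlg1 (SAP97; NM_007862, chr16:31663529-31873436, 25 introns) carries receptors and polarity proteins at synapses and at junctions of other cells. It had 632 reads in mouse dendrites, 312 in mouse somas, 56868 in BAT, 209 in cardiomyocytes and 457 in rat dendrites, and it was not listed in rat somas. On the RPM scale these were 205, 168, 3184, 17.1 and 454. BAT cells stood far above the other lists. Introns 4 and 3 held 30922 and 21104 of the BAT reads, together 91.5% (interval 91.3 to 91.7), and intron 19 held 2491. The same introns 3 and 4 had 164 and 56 reads in mouse dendrites, neither was listed in somas, and intron 4 had 109 reads in cardiomyocytes. In mouse somas the reads lay further downstream, with 194 in intron 14, 112 in intron 18 and 6 in intron 19. Intron 14 was listed in all 4 mouse lists, with 5 reads in dendrites, 28 in BAT and 14 in cardiomyocytes. Intron 18 had 160, 112 and 130 reads in dendrites, somas and BAT, with contigs that overlapped in all pairs. Contigs in introns 6, 16 and 19 touched exons of other annotated Dlg1 transcripts. In intron 16 this was the only cardiomyocyte contig, with 81 reads. In intron 6 it was 1 of 2 dendrite contigs and 1 of 3 BAT contigs. In intron 19 it was the soma contig (6 reads) and the cardiomyocyte contig (4 reads), but not the BAT contig. In rat dendrites 302 of the reads lay in intron 20 of NM_012788 and 104 in intron 7.

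Dlg2 (PSD-93, also chapsyn-110; NM_011807, chr7:98411443-99593127, 22 introns) anchors NMDA receptors and potassium channels. It had 3685 reads in mouse dendrites, 5152 in mouse somas, 10226 in BAT, 6757 in cardiomyocytes, 80 in rat dendrites and 358 in rat somas. The levels were 1194, 2777, 573, 554, 79.4 and 171 RPM. Mouse somas were highest, an order against dendrites that turned under both alternatives given with the ratios. BAT and cardiomyocytes were lower than both neuronal lists of the mouse. With only introns that hold a contig of at most 400 nt, the soma to BAT ratio was 0.344, so BAT then stood above somas. A different intron held most reads in each mouse list. In dendrites it was intron 9 with 1566 reads, or 42.5% (40.9 to 44.1), followed by intron 7 with 785 and intron 5 with 548. Mouse somas had 4151 reads in intron 22, or 80.6% (79.5 to 81.6), in 1 contig of 1303 nt. BAT cells had 9082 in intron 6, or 88.8% (88.2 to 89.4), and cardiomyocytes 6645 in intron 20, or 98.3% (98.0 to 98.6), all in 1 contig of 2280 nt. The leading intron thus held the smallest share of the Dlg2 reads in dendrites. Intron 22 had 8 reads in dendrites, and intron 9 had 27 in somas and 126 in BAT. Intron 14, with 232, 595, 257 and 90 reads, and intron 10, with 154, 3, 58 and 22, were listed in all 4 mouse lists. Of the 4 dendrite and 12 BAT contigs in intron 14, 1 pair overlapped and ended 1 nt apart, at 99523906 and 99523907. In the rat both lists turned on intron 20 of NM_022282, with 80 reads in dendrites and 356 in somas. The contigs covered rn4 positions chr1:149265264-149265562 and chr1:149265261-149265561, with starts 3 nt and ends 1 nt apart.

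**Figure D2:**
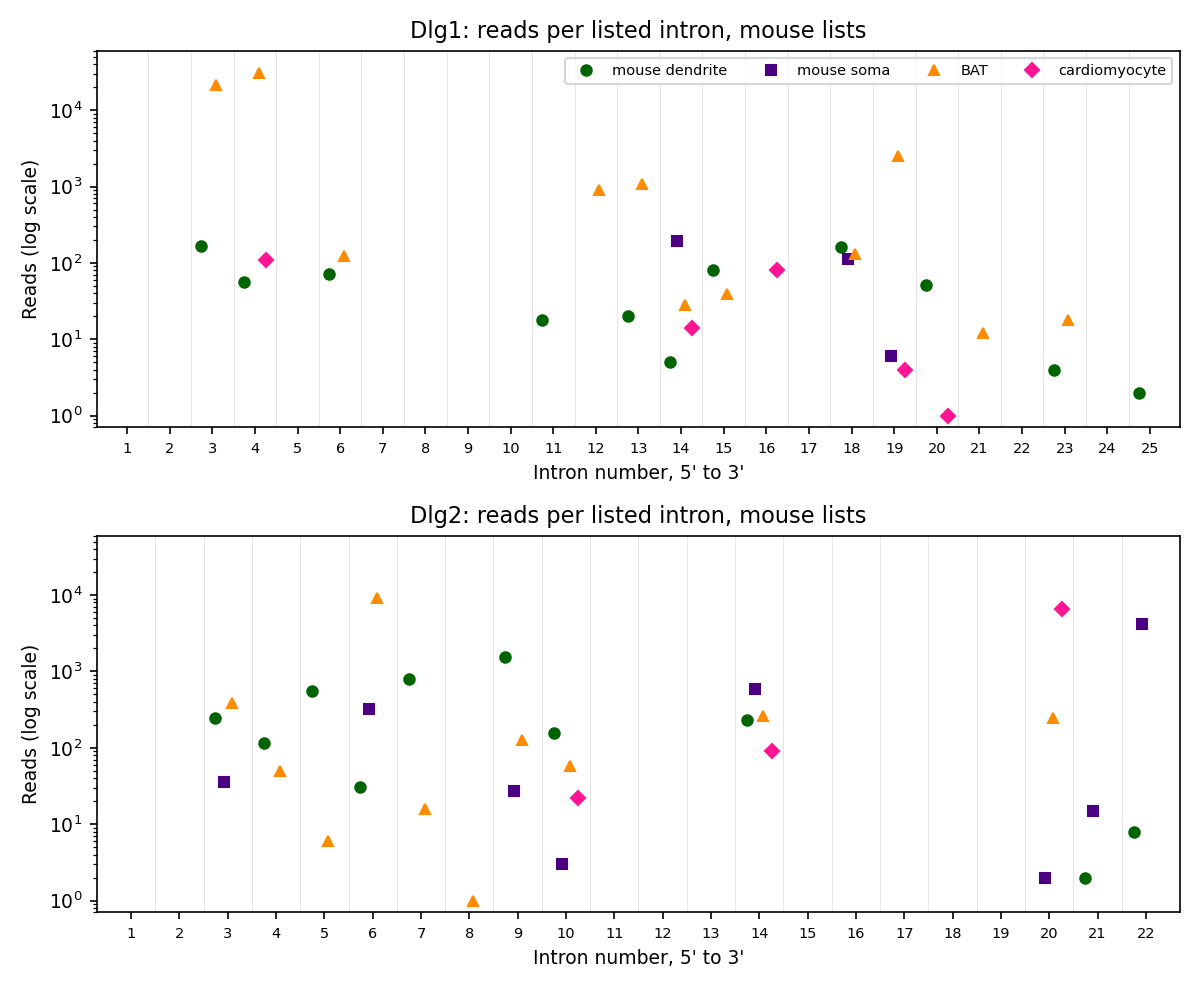
Reads per listed intron (log axis) against intron number for Dlg1 and Dlg2 in the 4 mouse lists; an intron without a symbol is not listed. The BAT symbols of Dlg1 introns 3 and 4 stand at 21104 and 30922 reads, and in Dlg2 the highest symbol is intron 9 in dendrites, 22 in somas, 6 in BAT and 20 in cardiomyocytes.

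Dlg3 and Dlg4 were sparse. Dlg3 (SAP102; NM_016747, chrX:97963088-98013747), the early-expressed member of the family in brain, had 9 reads in mouse dendrites, 7 in intron 1 and 2 in intron 11, and was in no other list. Dlg4 (PSD-95; NM_007864, chr11:69831968-69859034, 19 introns), the most studied postsynaptic scaffold, had 96 reads in mouse dendrites, 19 in mouse somas and 26 in BAT, or 31.1, 10.2 and 1.46 RPM. All of them lay in intron 8, which is shown above. A contig of each of the 3 lists covered the same 163 bases.

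The Dlgap genes link Dlg to Shank. Dlgap1 (GKAP; chr17:70871476-71170749 for NM_001128180) had 282 reads in mouse somas, 229 in rat dendrites and 209 in rat somas, or 152, 227 and 99.8 RPM, and was not listed in mouse dendrites, BAT or cardiomyocytes. Intron 6 held 280 of the mouse soma reads. In the rat, intron 12 of NM_022946 held 229 and 206 reads, in contigs that shared 40 nt. Dlgap2 (NM_001145965, chr8:14095865-14847108, 14 introns) had 1627 reads in mouse dendrites, 844 in mouse somas, 6872 in BAT, 9 in cardiomyocytes and 54 in rat somas. The first 3 levels, 527, 455 and 385 RPM, were close to each other, and cardiomyocytes were low at 0.738 RPM. Intron 2 of Dlgap2, 273002 nt long, held the most reads in these 3 lists, with 976, 488 and 5878. Without this intron the dendrite to soma ratio of RPM was 1.10, but the soma to BAT ratio was 3.45. A BAT contig and a soma contig there touched an exon of another annotated Dlgap2 transcript, so their reads may not be purely intronic.

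Dlgap3 (SAPAP3, the family member known best from striatal synapses; NM_198618, chr4:126850124-126914266) went in opposite directions in the mouse and rat comparisons. It had 12 reads in mouse dendrites, 154 in mouse somas and 506 in BAT, or 3.89, 83.0 and 28.3 RPM, and was not listed in cardiomyocytes. In the rat it had 518 reads in dendrites, all in 1 contig of 1217 nt in intron 4 of NM_173138, and 4 reads in somas, in intron 10. Mouse reads lay in introns 8 and 5, with 148 and 6 in somas, 54 and 452 in BAT, and the dendrite reads in intron 8. The rat dendrite and soma reads thus came from different introns.

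The Shank genes, which hold Dlgap and Homer proteins together, had most of their reads in somas, apart from Shank1 in the mouse, which was not listed there. Shank1 (NM_001034115, chr7:51565623-51613721, 24 introns) had 18 reads in mouse dendrites, 2 in BAT, 5 in rat dendrites and 7060 in rat somas. The rat soma value, 3371 RPM, stood alone, and 6964 of its reads lay in intron 4 of NM_031751, in 1 contig of 1300 nt at rn4 chr1:94796535-94797834. Introns 6, 7 and 8 of the same transcript were listed in rat somas too, with 6, 14 and 76 reads. In mouse dendrites intron 24 held 16 of the 18 reads. Shank2 (NM_001113373, chr7:151361425-151608580) had 87 reads in mouse somas, 8 in BAT and 8 in cardiomyocytes. The mouse soma reads came from 1 contig of 1609 nt in intron 11 that overlapped the annotated gene Gm14372, and the 2 genes cannot be told apart there. Shank3 (NM_021423, chr15:89330054-89390692, 21 introns), mutated in Phelan-McDermid syndrome in people, had 82 reads in mouse dendrites, 836 in mouse somas, 8 in BAT and 884 in rat somas. Intron 12 held 810 of the mouse soma reads, intron 9 held 80 of the dendrite reads, and intron 17 of NM_021676 held all rat soma reads. The summed Shank level was 32.4 RPM in mouse dendrites against 497 in mouse somas, and 4.96 RPM in rat dendrites against 3793 in rat somas. BAT and cardiomyocytes were at 1.01 and 0.656 RPM.

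Between genes, levels were compared per length, as RPM per kb of annotated intron of the matched mouse transcript. In mouse somas Shank3 was first at 8.46, followed by Dlg2 at 2.35, Dlgap3 at 1.38 and Dlg1 at 0.818. In mouse dendrites Dlg4 (1.32), Dlg2 (1.01) and Dlg1 (0.996) were close, and Dlgap2 followed at 0.705. The counting interval of Dlg4 rests on 96 reads. In BAT Dlg1 was at 15.5, and no other member passed 0.515. Dlg2 was first in cardiomyocytes at 0.470, with 98.3% of its reads there in intron 20. Single introns also held most soma reads of Shank3 (96.9%), Dlg2 (80.6%), Dlgap3 (96.1%) and Dlg1 (62.2%). The order without these introns was not computed. Rat intron lengths were not analysed here.

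Dendrites were set against somas for the members listed in both lists of a species, by the ratio of RPM values. The 6 mouse members had a median ratio of 0.794, against 1.20 for all 4739 genes in both lists. None was at least 4-fold higher in dendrites, where 33.2% of all genes were, and 2 were at least 4-fold lower, where 24.9% were. Those were Dlgap3, with a ratio of 0.0468 (interval 0.0237 to 0.0842), and Shank3, with 0.0590 (0.0464 to 0.0740). Dlg4 was higher in dendrites at 3.04 (1.84 to 5.26), Dlg1 at 1.22 (1.06 to 1.40) and Dlgap2 at 1.16 (1.07 to 1.26). Dlg2 was lower at 0.430 (0.412 to 0.449), but this direction rested on intron 22. Without the intron with the most reads in each list the Dlg2 ratio was 1.27, and with only introns that hold a contig of at most 400 nt, all reads of such an intron kept, it was 2.74. The Dlgap2 ratio was 0.975 then, with its reads unchanged and only the list totals lower. The Shank3 ratio stayed below 1, at 0.0462 and 0.00121, but both values rest on the 2 dendrite reads of intron 12. The Dlg1 ratio stayed above 1, at 2.38 and 2.13. Dlgap3 had no dendrite contig of at most 400 nt. Neuronal markers had 17346 reads in mouse somas and 556 in mouse dendrites. Of the astrocyte markers, Aldh1l1 had 2826 reads in dendrites and 6 in somas, and Slc1a2 had 254 in somas and was not listed in dendrites. Microglial markers had 848 reads in dendrites and 70 in somas, cardiomyocyte markers 1601 and 19, and brown adipocyte markers 361 and 2. The part of these markers in the ratios was not tested.

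The 4 rat members in both lists had a median ratio of 1.37, against 1.66 for all 2166 genes. Dlgap3 was at 269 (interval 105 to 992), from 518 reads against 4, and 35.7% of all genes were at least 4-fold higher. Shank1 was at 0.00147 (0.000478 to 0.00344), from 5 reads against 7060, and 24.6% were at least 4-fold lower. With only introns that hold a contig of at most 400 nt the Shank1 ratio was 0.0827, and Dlgap3 had no ratio, since its dendrite contig was longer. Dlgap1 had a ratio of 2.28 (1.88 to 2.76) and Dlg2 one of 0.465 (0.360 to 0.593). Dlg2 and Dlgap3 were the only members with a ratio in both species. Dlg2 was below 1 in both, but in the mouse it was 1.27 without the leading introns and 2.74 with only introns that hold a contig of at most 400 nt. Dlgap3 was below 1 in the mouse and above 1 in the rat.

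**Figure D3:**
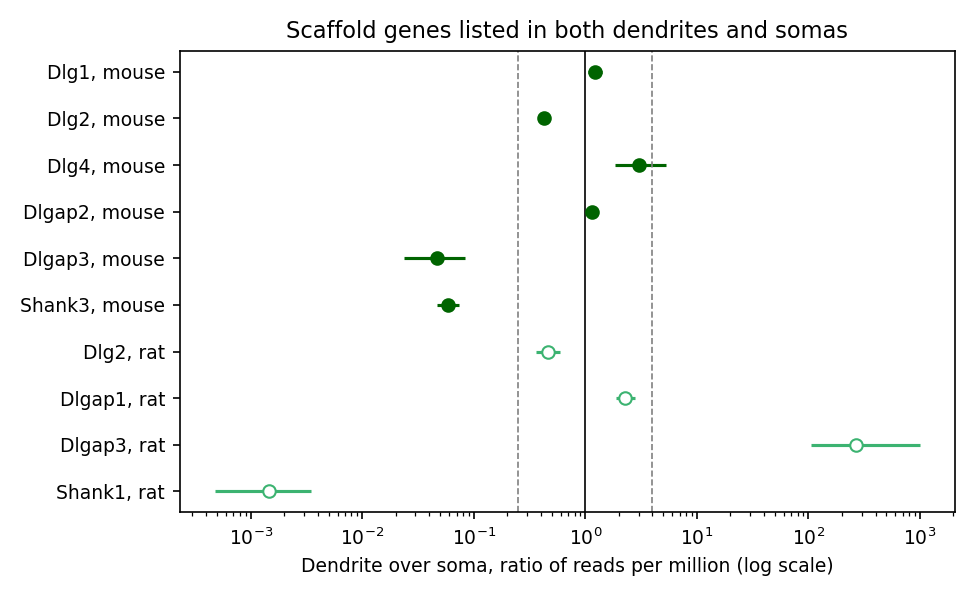
Ratio of RPM in dendrites to RPM in somas (log axis) for the members listed in both, with exact 95% counting intervals. Filled symbols are mouse, open symbols rat, the solid line is a ratio of 1 and dashed lines mark 4-fold. Shank3 in the mouse (0.0590), Shank1 in the rat (0.00147) and Dlgap3 on opposite sides in the 2 species (0.0468 and 269) lie past the dashed lines.

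Against BAT, 7 members had a ratio of mouse soma to BAT, with a median of 4.85, which is the ratio of Dlg2, against 1.30 for all 5076 genes. Of these, 4 were at least 4-fold higher in somas, where 33.7% of all genes were: Dlg2 at 4.85 (4.69 to 5.01), Dlg4 at 7.03 (3.68 to 13.2), Shank2 at 105 (50.8 to 250.1) and Shank3 at 1006 (508 to 2337). Shank2 and Shank3 rested on 8 reads each in BAT, and the soma reads of Shank2 are those that cannot be told apart from Gm14372. The Dlg2 ratio rested on single introns: the soma introns other than 22 held 1001 reads, and with only introns that hold a contig of at most 400 nt the ratio was 0.344. Without the leading intron of each list it was 8.42, and that of Shank3 was 125, from 26 reads in somas and 2 in BAT. Dlg1 was 4-fold lower or more at 0.0528 (0.0471 to 0.0590), where 26.7% of genes were. Dlgap2 and Dlgap3 had ratios of 1.18 and 2.93, and that of Dlgap3 was 0.963 with only introns that hold a contig of at most 400 nt. Without the leading intron of each list the Dlgap2 and Dlgap3 ratios were 3.45 and 1.07. Against cardiomyocytes all 4 members with a ratio, Dlg1 (9.82), Dlg2 (5.01), Dlgap2 (617) and Shank2 (71.5), were at least 4-fold higher in somas, where 37.0% of all genes were. Under both alternatives the Dlg2 ratio grew, to 58.8 and 93.4, and the Shank2 value carries the limit of Gm14372 here too. The other 4 members of the soma list were not listed in cardiomyocytes. The 2 comparisons share the soma list. Neuronal markers were lower in BAT, at 611 RPM against 9349 in mouse somas, and not listed in cardiomyocytes, and their part in these ratios was not tested.

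Introns of the 10 genes were then compared with all introns of the matched mouse transcripts, by whether a contig was listed. An intron shared by transcripts of a gene was counted once. Only transcripts with a listed intron in at least 1 mouse list could be matched, for the members and for all genes alike. The shares are therefore not those of all annotated introns. Of 186 member introns, 49 were listed in at least 1 mouse list, or 26.3% (interval 20.2 to 33.3), against 30.6% of 147976 introns. The share was 17.2% (12.1 to 23.4) in dendrites against 12.8% of all introns, and 12.9% (8.45 to 18.6) in somas against 6.93%. In BAT it was 16.7% (11.6 to 22.8) against 19.7%, and in cardiomyocytes 5.91% (2.99 to 10.3) against 8.58%. Of the 70 member introns under 1 kb, 1 was listed (1.43%, interval 0.0362 to 7.70), against 15.0% of all introns of this length. Introns of 5 to 20 kb were listed in 55.9% of cases (37.9 to 72.8) against 52.4%, and those of 20 kb or more in 37.8% (22.5 to 55.2) against 34.5%. The longest intron of Dlg2, intron 2 with 283175 nt, was in no list. Removal by the authors' screens for predicted genes and poly(A) sites and a lack of reads cannot be told apart for an intron that is not listed. Introns of 1 gene are not independent.

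**Figure D4:**
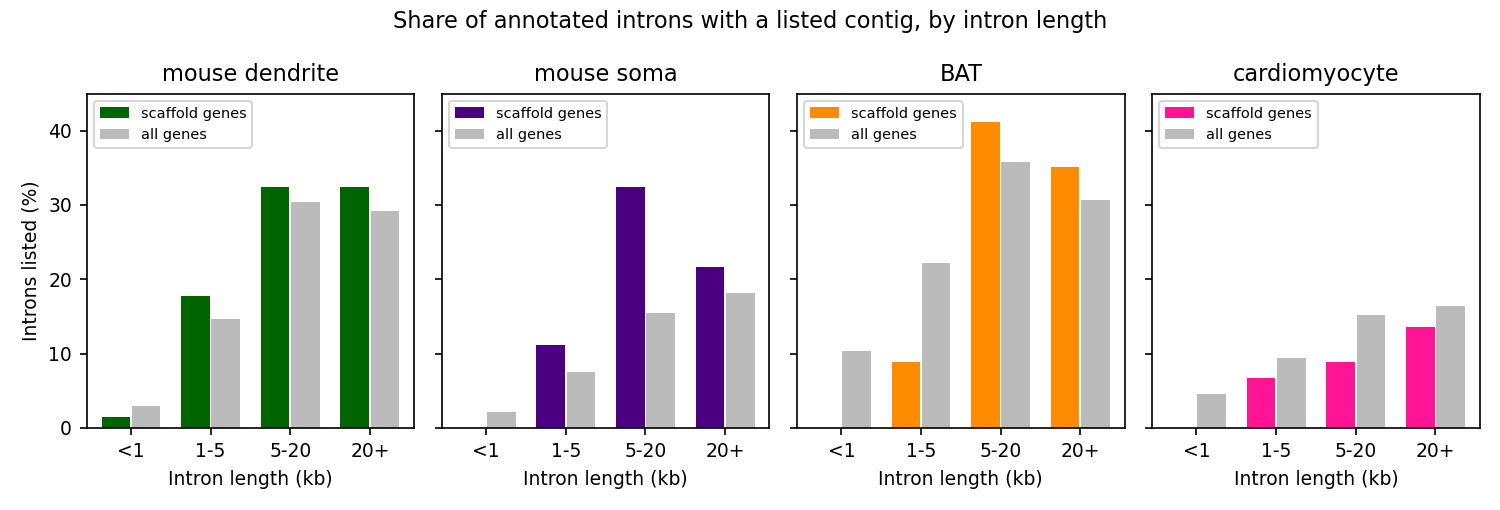
Percent of introns with a listed contig, by intron length, for the scaffold genes (coloured bars) and all matched genes (grey bars) in each mouse list. Only transcripts with a listed intron in any mouse list are counted. In dendrites the shares at 20 kb or more are 32.4% and 29.2%, and in somas the scaffold genes stand at 32.4% against 15.4% for 5 to 20 kb.

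In the 2 neuronal lists of the mouse and in BAT, listed introns of the members held several contigs more often than listed introns of all genes, with no match for intron length. A single contig was found in 56.3% of member introns in mouse dendrites against 80.0% of all introns, in 58.3% against 85.9% in mouse somas and in 45.2% against 77.8% in BAT. In cardiomyocytes (90.9% against 85.3%), rat dendrites (100% against 89.7%) and rat somas (90.9% against 90.2%) the share with a single contig was above that of all genes. Mouse dendrites and somas shared 15 member introns, 46.9% of the 32 in dendrites and 62.5% of the 24 in somas, against 25.9% and 47.8% for all genes. In 9 of the 15 shared introns a dendrite contig overlapped a soma contig. Of all 73 member contigs in mouse dendrites 9 overlapped a soma contig, or 12.3%, against 11.8% for all genes, and none of the 12 cardiomyocyte contigs overlapped a dendrite contig, where 13.7% of all cardiomyocyte contigs did.

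Most member contigs ended inside the intron. A boundary with an exon lay within 1 nt of 2 of 73 contigs in mouse dendrites (2.74%, against 8.27% of all contigs), 2 of 41 in somas (4.88% against 13.4%), 2 of 94 in BAT (2.13% against 27.9%) and 1 of 12 in cardiomyocytes (8.33% against 31.8%). These were contigs of Dlg1 introns 14, 15, 16 and 20, Dlg2 introns 21 and 22 and Shank1 intron 18. The boundary shares were not matched for intron length. In BAT, no member intron under 1 kb was listed, against 10.4% of all introns of this length. An A run of at least 10 bases lay in the contig or within 300 nt downstream in 17 of 73 dendrite contigs, or 23.3% (interval 14.2 to 34.6), against 16.6% of all contigs. In somas it was 19 of 41, or 46.3% (30.7 to 62.6), against 28.6% (median contig 307 nt against 277), in BAT 12.8% (6.77 to 21.2) against 15.0%, and in cardiomyocytes 33.3% (9.92 to 65.1) against 23.4%. The soma interval lay above the share of all contigs, and the others included it. Several contigs of 1 intron share their source, and the intervals do not allow for this.

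Among 42 other postsynaptic density genes, 33 occurred in the mouse lists and 27 in the rat lists. Of these, 28 were listed in mouse dendrites, 28 in mouse somas, 27 in BAT, 23 in cardiomyocytes, 23 in rat dendrites and 20 in rat somas, beside the background shares given above. Their sums were 9213 RPM in mouse dendrites, 9343 in mouse somas, 3417 in BAT, 6598 in cardiomyocytes, 20260 in rat dendrites and 19497 in rat somas. Single genes held much of some sums: Arhgef7 had 14628 of 20413 reads in rat dendrites and 14320 of 40837 in rat somas, and Magi3 had 59087 of 80503 reads in cardiomyocytes. The genes with the most reads were Magi2, a PDZ scaffold, with 8261 reads, Syne1, a spectrin-repeat protein (5750), and Iqsec2, an Arf exchange factor (2509), in mouse dendrites. In mouse somas they were Sipa1l1, a Rap GTPase-activating protein (4656), Magi2 (2052) and the WAVE complex subunit Abi2 (1553). BAT had Tanc2 (18957), Lrrc7 (8546) and Sipa1l1 (6722), and cardiomyocytes Magi3, Syne1 (14267) and Abi2 (1775). In the rat, the Rac exchange factor Arhgef7 led both lists, followed by Cask (1058) and Abi2 (875) in dendrites and by Magi1 (10722) and Cyfip1 (8260) in somas.

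Dlg2 had the most RPM summed over the 6 lists among the members, and the genes with the nearest pattern were sought among the 854 genes in all 6 lists. The measure was the Euclidean distance between log10 RPM values over the 6 lists. Ppp3ca, a catalytic subunit of calcineurin, was nearest with a distance of 0.876, at 406 RPM in mouse dendrites, 620 in mouse somas, 470 in BAT, 491 in cardiomyocytes, 36.7 in rat dendrites and 187 in rat somas. Fam190a followed at 0.954 and Thsd7a at 1.02. All 3 had a lower RPM than Dlg2 in mouse somas.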

How the data were processed

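Single cells and dissected dendrites were amplified by the aRNA method and sequenced by the authors, who counted only intronic reads with a unique position, screened out introns holding a gene prediction or a known poly(A) site, and joined neighbouring reads into contigs. For somas, BAT and cardiomyocytes the study went on with contigs of at most 400 nt, while the deposited lists hold longer ones too, and all were used here. The deposited counts are raw numbers of reads per intron, repeated on each contig and without normalization, and each was used once per transcript and intron. Positions, deposited from 0, were counted from 1. The submitters' processing notes name mm9 and rn4. Libraries are pooled, so no replicate error, test or value per library was computed. No per-sample column was left unused.

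Members, gene lists and markers were chosen with earlier results of these data known. All 10 members were named, with the 3 leading other genes per list, the 3 genes nearest to the leading member, and each member's leading and shared introns. Values are reads scaled to 1000000 listed reads (RPM) with exact 95% Poisson intervals. Ratios have exact conditional binomial intervals and shares exact Clopper-Pearson intervals. A 4-fold ratio was called. Mouse introns were matched to GENCODE on NCBIM37 (12777 of 13156 transcripts, 97.1%). The scripts were tested on simulated data. Python 3.11.15, pandas 2.3.3, scipy 1.17.1 and pysam 0.24.0 were used. Alternatives were read minimums of 32 and 8 times 32, only introns holding a contig of at most 400 nt (with all their reads, since reads are given per intron), a 2-fold limit, totals without the 10 leading introns and 1 transcript per gene.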

Additional observations from a re-analysis of the deposited data

Results flagged for a closer look

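Dlgap3 stood out because its dendrite to soma ratio pointed in opposite directions in the 2 species. The ratio was 0.0468 in the mouse, from 12 reads in dendrites and 154 in somas, and 269 in the rat, from 518 reads in dendrites and 4 in somas. The difference between the species was not tested, since each condition is 1 pooled list, and the reads came from intron 8 of the mouse transcript in dendrites and from intron 4 of the rat transcript.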

How the results depend on the processing

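No paired analysis was possible because the libraries of a condition are pooled in 1 list, and leaving out single libraries was impossible for the same reason. Taking 1 transcript per gene left the summed level of the members within its counting interval in all 6 lists. The order below is mouse dendrites, mouse somas, BAT, cardiomyocytes, rat dendrites, rat somas. With at least 32 reads per intron the members listed were 5, 7, 4, 2, 4 and 5, with a minimum 8 times as high 2, 4, 4, 1, 2 and 3, and with only introns that hold a contig of at most 400 nt 7, 7, 8, 4, 3 and 6. The summed RPM of such introns, with all their reads, was 2469, 2805, 6507, 29.8, 348 and 2254. With totals that leave out the 10 introns with the most reads it was 2098, 4555, 4380, 620, 1538 and 4696. Without the member intron with the most reads, chosen after the data were seen, it was 1489, 1905, 2441, 27.7, 765 and 766. The members past the fold limit between dendrites and somas, 2 in the mouse and 2 in the rat, became 4 and 4 at 2-fold, and 1 and 1 with only introns that hold a contig of at most 400 nt. Of the single ratios, also recomputed after the data were seen, Dlg2 in the mouse turned from 0.430 to 1.27 without the leading introns and to 2.74 with only introns that hold a contig of at most 400 nt. Dlgap2 went from 1.16 to 0.975 with the latter, where its reads were unchanged and only the list totals fell. Of the soma to BAT ratios Dlg2 went from 4.85 to 0.344 and Dlgap3 from 2.93 to 0.963 with the latter. The other 23 recomputed ratios kept their direction and their side of the 4-fold limit. The fall in the number of members under a read minimum follows from its construction, and the cause of the remaining changes was not tested. Lists hold only introns with reads, so a gene that is not listed has no upper limit here.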
